A study of Homo sapiens with 6 samples.

Results

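5hmC and 5mC peak regions of A2058 cells grown in normal glucose were set against each other. A2058 is a human melanoma cell line, here overexpressing wild-type TET2, and all libraries of the series came from these cells after 7 days of culture in normal or high glucose. Whether the line is 1 clone is not given in the labels. Each mark has 1 library at each glucose level, and the 2 input libraries were not analysed here. Members were all regions on chromosomes 1 to 22 and X in the normal-glucose 5hmC list (209999) and the normal-glucose 5mC list (91870), together 301869 of the 593403 regions in the 4 lists of the series. A region was called paired when a region of the other mark covered at least 1 bp of it, and alone otherwise. With 1 library per mark there is no replicate and no test between conditions, and intervals on shares and medians cover counting only. Regions of a list are not replicates, and PCR copies of 1 molecule cannot be told from separate molecules here. High-glucose values are given beside some results as a second pair of libraries. The glucose level of each list is the one in its labels, while the peak names inside the lists carry Low where the label says normal glucose and Ctrl where it says high glucose, and what those names stand for is not given in the labels.

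5-methylcytosine is written on CpG dinucleotides by DNA methyltransferases and marks most of the CpGs in differentiated cells. TET dioxygenases oxidise it to 5-hydroxymethylcytosine, which is an intermediate of demethylation and also persists as a mark, typically in gene bodies and at enhancers. Melanomas are known for low 5hmC. hMeDIP-seq and MeDIP-seq pull down DNA fragments with an antibody to one of the modified bases, so a peak gives a place where many fragments from many cells carried the base, and 2 overlapping peaks do not show that both bases sat on the same DNA molecule.

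Most regions of both marks lay apart from the other mark. Of the 5hmC regions, 37843 or 18% (Wilson 95% interval 17.9 to 18.2) were paired and 172156 were alone. Of the 5mC regions, 36430 or 39.7% (39.3 to 39.97) were paired and 55440 were alone. The marks shared 21.2 Mb, which was 17.004% of the bases under 5hmC regions and 32.0% of the bases under 5mC regions. In high glucose 17.6% of 191314 5hmC regions and 32.2% of 100220 5mC regions were paired. The 5mC share moved with the length of the 5hmC list: with the 91870 strongest 5hmC peaks alone, 21.9% of 5mC and 20.9% of 5hmC regions were paired. The 5mC library may also have been the shallower one. Background counts worked out from the listed fold and p-value gave an estimate of 5.38 times as many reads in the 5hmC library. The peak caller and its control are not named, so whether this ratio is that of the reads was not tested. A 5hmC region alone may lie over 5mC that was not detectable at the depth of the 5mC library.

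Pairing was mostly 1 to 1. Of the 39728 overlapping pairs, 30659 joined a 5hmC region and a 5mC region that had no other partner. Among 5hmC regions, 1657 overlapped 2 or more 5mC regions, and among 5mC regions 2746 overlapped 2 or more 5hmC regions. The most partners were 9 for a 5hmC region and 7 for a 5mC region.

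Paired regions were wider than regions alone in both lists. The median 5hmC region was 662 bp wide when paired (5th to 95th percentile 274 to 2334 bp) and 416 bp when alone (259 to 1141 bp), and 75.5% of paired 5hmC regions exceeded the median width of those alone. The median 5mC region was 670 bp wide when paired (325 to 2518 bp) and 444 bp when alone (325 to 1205 bp), and 75.9% of paired 5mC regions exceeded the median of those alone. The share paired was higher in each wider class of both lists. Over 10 equal groups by width the 2 narrowest 5hmC groups did not differ beyond their intervals, at 8.74% and 8.57%. Among 5hmC regions under 350 bp, 8.88% were paired, against 21.2% from 500 to below 1000 bp, 41.7% from 1000 to below 2000 bp and 85.1% of the 1084 regions of 3000 bp or more. For 5mC the shares at the same widths were 21.3%, 44.2%, 66.1% and 90.8% of 1299 regions. A wider region has more bases at which an overlap can be found, and how much of the rise that accounts for was not tested.

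**Figure D1:**
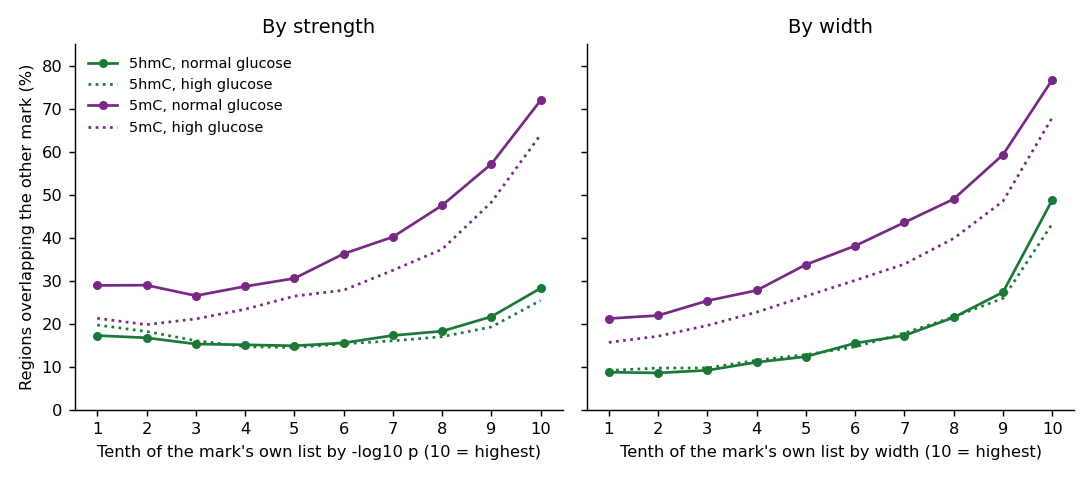
Percent of regions that overlap the other mark (vertical axis) in each of 10 equal groups of a mark's own list, ranked by -log10 p (left) or by width (right), for 5hmC (green) and 5mC (purple) in normal glucose (solid, points) and high glucose (dotted). By strength, 5mC climbs to 71.9% in the top group in normal glucose, while 5hmC starts at 17.2%, dips to 14.9% and ends at 28.3%.

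Stronger 5mC regions were more often paired. Fold enrichment is the authors' value at a peak's summit relative to its local background, and it is compared only within a list. The median fold of 5mC regions was 8.30 when paired (95% interval of the median 8.24 to 8.39) and 6.13 when alone (6.09 to 6.16), and 68.9% of paired regions were above the median of those alone. Of 10 equal groups of the 5mC list, that with the lowest -log10 p held 28.9% paired regions, and in that with the highest, 71.9% (71.0 to 72.8). The difference was also seen inside the 3 wider of 5 groups by width. The widest group (911 bp and more) held 51.0% paired regions in the weakest and 73.4% in the strongest of 5 equal groups by -log10 p. In the width group from 445 to 592 bp the same shares were 34.5% and 42.1%. In the narrowest 2 groups, up to 445 bp, no such rise was seen: the shares went from 29.7% to 28.5% in the wider of them.

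For 5hmC the relation was smaller and depended on width. Over the whole list, the median fold of 5hmC regions was 4.56 when paired (4.56 to 4.61) and 4.28 when alone (4.26 to 4.28), and 56.9% of paired regions exceeded the median of those alone. Over 10 equal groups by -log10 p the share paired was 17.2% in the weakest, 14.9% at its lowest and 28.3% in the strongest. Within groups of like width the direction turned in 4 of 5 groups. Among the narrowest 5hmC regions (259 to 305 bp), the median fold was 3.57 when paired and 3.83 when alone, and 36.9% of paired regions were above the median of those alone. The shares above it were 38.5%, 40.4% and 47.8% in the next 3 groups and 55.6% in the widest (766 bp and more). Among regions of 305 to 387 bp, 14.2% of the weakest group and 6.07% of the strongest were paired. In the widest group these were 33.8% and 40.9%. In high glucose the share above the median was 36.9% in the narrowest and 49.6% in the widest group.

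**Figure D2:**
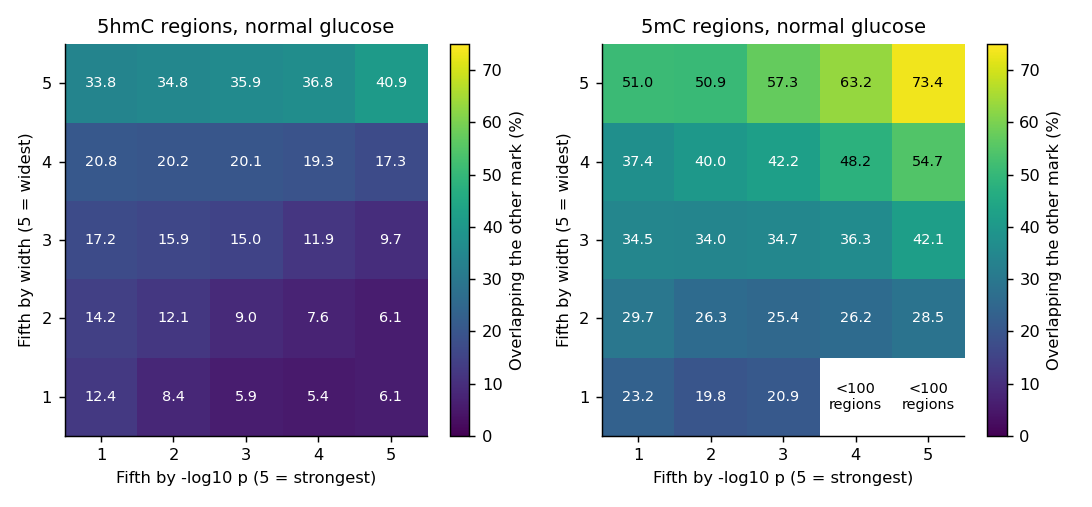
Percent of normal-glucose 5hmC regions (left) and 5mC regions (right) that overlap the other mark, in 5 equal groups by -log10 p (horizontal) and 5 equal groups by width (vertical). For 5hmC the share falls from left to right in rows 2 to 4, as from 17.2% to 9.71% in row 3, and rises in the widest row from 33.8% to 40.9%. For 5mC it rises to 73.4% at the top right.

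The cover of the other mark was also read at single bases, at the summits, where the width of the region itself does not enter. 5hmC covered 21.6% of the summits in the weakest of 5 groups of 5mC regions and 49.3% (48.6 to 50.1) in the strongest. At 10 kb from the same summits it covered 10.7% and 17.1%, so that the summit stood 2.01 times above its surroundings in the weakest and 2.89 times in the strongest group. The rise was narrow: in the strongest group cover was 26.6% at 500 bp, 20.98% at 1000 bp and 19.7% at 2000 bp. No dip in 5hmC was seen at the summits of any of the 5 groups of 5mC regions. In the other direction, 5mC covered 12.6% of the summits in the weakest 5hmC group, 11.4% and 11.6% in the next, then 13.3%, and 18.4% (18.1 to 18.8) in the strongest. At 10 kb these were 6.59%, 5.84%, 5.56%, 5.88% and 6.88%. The ratio of summit to surroundings was lower in the weakest group, at 1.91, than in the strongest, at 2.68.

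**Figure D3:**
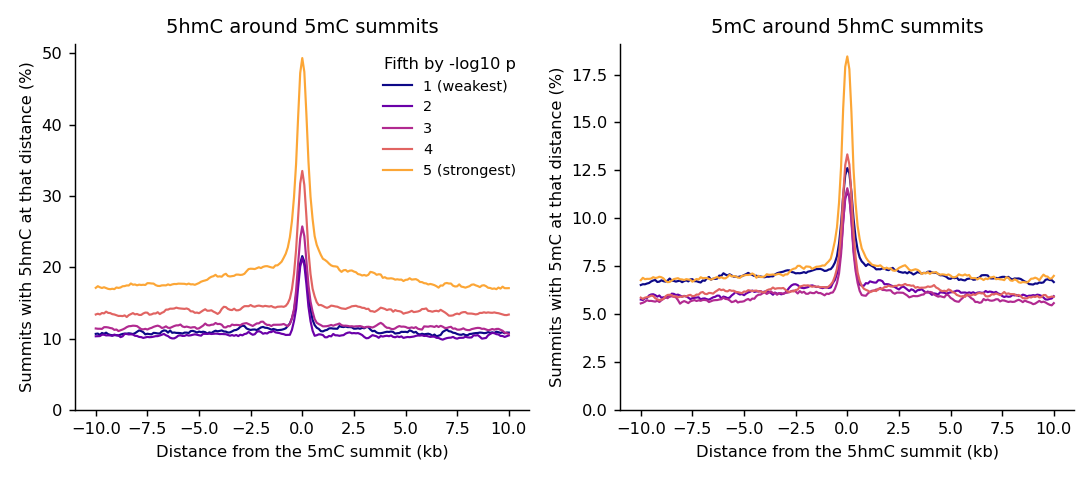
Percent of summits that have a region of the other mark at each distance, in steps of 100 bp to 10 kb on both sides, for 5hmC around 5mC summits (left) and 5mC around 5hmC summits (right) in normal glucose, with 1 line for each of 5 equal groups by -log10 p. All lines peak at the summit. The strongest 5mC group reaches 49.3% there and 17.1% at 10 kb.

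Where the marks overlapped, their summits were usually close. The median distance between the 2 summits of a pair was 240 bp (236 to 245), with 25% of pairs within 83 bp and 90% within 1196 bp. Pairs of regions with no other partner had a median of 180 bp. At most 100 bp separated the summits in 29.1% of pairs and at most 1000 bp in 86.6%. For scale, the median width of paired regions was 662 bp for 5hmC and 670 bp for 5mC, and overlap of the regions itself limits the distance. The commonest width, which is also the shortest, was 259 bp in the 5hmC list and 325 bp in the 5mC list. The 5mC summit had the higher coordinate in 49.5% of pairs. Distances grew with width, from a median of 159 bp where the narrower region was under 350 bp to 582 bp where it was 1000 to below 2000 bp and 1728 bp in the 256 pairs in which both regions reached 3000 bp.

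The extent of the overlap varied. Its median was 409 bp, or 68.6% of the 5hmC and 63.4% of the 5mC region for the median pair. The 5hmC region lay inside the 5mC region in 10148 pairs (25.5%), the 5mC region lay inside the 5hmC region in 8235 (20.7%), and 21344 (53.7%) were staggered. Both summits lay under both regions in 53.5% of pairs, with a median distance of 91 bp. In 12.2% neither summit lay under both regions, with summits a median of 625 bp apart. An overlap of 50 bp or less was found in 900 pairs. On the other side of the 1 bp limit, 751 5hmC regions and 683 5mC regions that were alone lay within 50 bp of the other mark. With 50% of both regions required to overlap, 15906 pairs remained, so 17.3% of 5mC and 7.57% of 5hmC regions were paired. With every region set to 300 bp around its summit the shares were 24.1% and 10.5%. The median summit distance was then 118 bp and 94 bp, in that order. Regions of 300 bp around summits can only overlap if the summits are close, so the second value is limited by the setting.

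Within pairs, the strength of one mark told little about the strength of the other. Over the 39728 pairs the Spearman rho between 5hmC fold and 5mC fold was 0.03, and 0.07 over the 30659 pairs with no other partner. Regions of the same library are not independent points, and both folds depend on local background. The median 5mC fold of the partners was 8.67 for the weakest of 5 groups of 5hmC regions (median own fold 2.98) and 9.11 for the strongest (median own fold 7.49). The median 5hmC fold of the partners was 4.63 for the weakest 5mC group (own fold 4.27) and 4.71 for the strongest (own fold 20.5). Among the 1000 top ranks of each list, 395 5hmC regions and 820 of 1001 5mC regions were paired. Of the 39728 pairs, 464 held such a 5hmC region, 1199 held such a 5mC region and 24 held both. Whether 24 is more than unrelated ranks would give was not tested.

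The 6 pairs with the smallest sum of ranks by -log10 p are given as examples of strong signal of both marks. The first lay on chromosome 1, with 5hmC from 209943586 to 209945811 at a fold of 12.5 and 5mC from 209943603 to 209945650 at a fold of 42.0, summits 363 bp apart. The second lay on chromosome 7, with 5hmC from 2098732 to 2099957 at a fold of 17.1 and 5mC from 2098773 to 2100772 at a fold of 75.9. The third, on chromosome 9, had 5hmC from 138727913 to 138731074 and 5mC from 138727851 to 138731149, with summits only 4 bp apart. The others lay on chromosome 4 (5hmC from 3415444 to 3417472), chromosome 1 (224199232 to 224204245) and chromosome 11 (118479267 to 118482289). The summits of the 6 pairs held 66 to 121 fragments in the 5hmC and 101 to 161 in the 5mC library, as worked out from fold and p-value. The medians for paired regions were 21 and 15. The pairs were chosen by that p-value, so counts above the medians follow from the choice. All 6 were found with both marks in the high-glucose lists. So were 82.0% of paired 5hmC and 75.4% of paired 5mC regions with a -log10 p of 10 or more. Positions are on hg19 and no gene annotation on that build was used here, so genes at these places are not named.

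The longest overlaps ran over several kilobases. On chromosome 8, a 5mC region from 144990117 to 145002328 lay whole inside a 5hmC region from 144985531 to 145008243, an overlap of 12212 bp with summits 6116 bp apart. The next were 7627 bp on chromosome 7 (5hmC from 290106 to 298088), 7373 bp on chromosome 17 (79090505 to 79098681) and 7031 bp on chromosome 19 (809638 to 818043). Their 5hmC folds of 7.70 to 15.5 and 5mC folds of 35.3 to 61.5 were above the medians of paired regions, and summits were 2190 bp or more apart. Over all pairs, fold rose with width (Spearman rho 0.50 for 5hmC and 0.72 for 5mC). The 4 pairs were chosen for length and were not set against regions of like width. Both marks were listed at all 4 places in high glucose. They were also listed there at 82.0% of paired 5hmC and 75.4% of paired 5mC regions with a -log10 p of 10 or more.

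Of the 100 top ranks of the 5hmC list 47 were paired (37.5% to 56.7%), against 18% of the whole list. Their median width was 1357.5 bp, and 41.7% of all 5hmC regions of 1000 to below 2000 bp were paired. The others of the 100 lay apart from 5mC. The strongest of those alone, chromosome 7 from 98176986 to 98178263, had 110 fragments at its summit, a fold of 18.2 and its nearest 5mC region at 11753 bp. The next was a region of 55852 bp on chromosome 21 from 10773678 to 10829529, the widest of the 5hmC list, at a fold of 13.4. It was followed by chromosome 10 from 105459969 to 105462740 (fold 18.9), chromosome 11 from 69058797 to 69059628 (15.0), chromosome 19 from 18194412 to 18195662 (17.3) and chromosome 21 from 11123878 to 11124501 (9.35). The nearest 5mC region lay 2777 to 55112 bp away. All 6 were listed for 5hmC in high glucose and none met a 5mC region there. Of all 5hmC regions alone with a -log10 p of 10 or more, 90.3% were listed for 5hmC and 4.06% met 5mC there. Of the 6 regions, those on chromosome 21 had expected background counts of 8.03 and 14.1, against a median of 3.76 for 5hmC regions alone. How well reads map at these places was not tested.

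Of the 100 top ranks of the 5mC list 87 were paired, against 39.7% of the whole list. Their median width was 2029.5 bp, and 82.2% of all 5mC regions of 2000 to below 3000 bp were paired. How far strength adds to width here was not tested. The strongest of those alone, chromosome 19 from 10624088 to 10626471, had 143 fragments at its summit and a fold of 78.8, and a 5hmC region lay 94 bp from its edge. Next were chromosome 15 from 65368535 to 65370770 (fold 79.9), 267 bp from 5hmC, and chromosome 5 from 132149472 to 132151215 (68.4), 2187 bp away. Chromosome 8 from 144939844 to 144941054 (42.5), chromosome 11 from 86142014 to 86142925 (65.6) and chromosome 5 from 140810249 to 140812735 (66.4) followed, at 6453 to 12780 bp from 5hmC. All 6 were listed for 5mC in high glucose and none met a 5hmC region there. Of all 5mC regions alone with a -log10 p of 10 or more, 94.1% were listed for 5mC and 8.56% met 5hmC there.

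Unpaired 5mC regions lay near 5hmC more often than the reverse. The median distance from a 5mC region alone to the nearest 5hmC region was 2839 bp (2796 to 2879), and from a 5hmC region alone to the nearest 5mC region 10918 bp (10789 to 11054). Of the 5mC regions alone, 24.2% lay within 1 kb of 5hmC, 82.1% within 10 kb and 0.299% (166 regions) more than 100 kb away. Of the 5hmC regions alone, 10.4% lay within 1 kb of 5mC, 48.2% within 10 kb and 13.5% (23281) beyond 100 kb. With as many 5hmC as 5mC peaks the medians were 6441.5 and 12285 bp, and with a -log10 p of 10 or more in both lists 6016 and 23463 bp. In high glucose they were 3311.5 and 11969 bp.

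Strength changed in opposite ways with this distance. 5hmC regions alone had a median fold of 4.12 and a median width of 448 bp within 1 kb of 5mC, and a fold of 4.35 and a width of 403 bp from 10 to 100 kb. 5mC regions alone had a median fold of 6.19 and a width of 468 bp within 1 kb of 5hmC, and 5.88 and 415 bp from 10 to 100 kb. From within 1 kb to the class of 10 to 100 kb, the share with a -log10 p of 20 or more went from 8.24% to 9.41% for 5hmC and from 16.9% to 11.6% for 5mC. These shifts are small beside the spread of folds within a class, whose 5th to 95th percentile over all regions alone was 2.63 to 8.18 for 5hmC and 3.72 to 17.96 for 5mC.

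**Figure D4:**
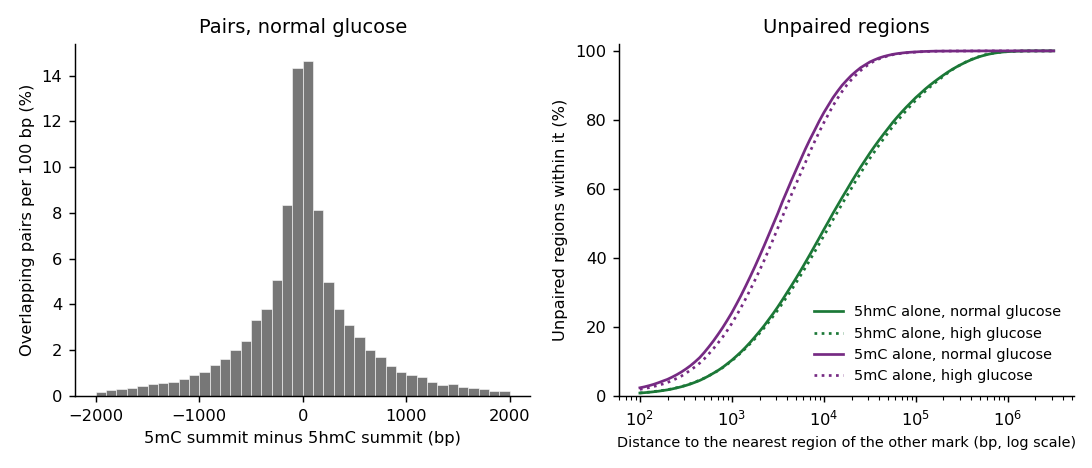
Left, percent of overlapping pairs in normal glucose by the position of the 5mC summit relative to the 5hmC summit, in steps of 100 bp to 2000 bp on both sides; the 2 bars next to 0 hold 14.3% and 14.6% of pairs. Right, cumulative percent of unpaired regions by distance to the nearest region of the other mark (log scale), for 5hmC (green) and 5mC (purple) in normal (solid) and high glucose (dotted); 48.2% of 5hmC and 82.1% of 5mC regions alone lie within 10 kb in normal glucose.

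Chromosomes differed widely in how often the marks met. The share of 5hmC regions that were paired was highest on chromosome 19, at 40.2% (39.2 to 41.2), followed by chromosomes 16 (30.3%) and 17 (28.7%), and lowest on the X chromosome, at 8.78% (8.05 to 9.57), chromosome 3 (10.2%) and chromosome 6 (11.8%). The share of 5mC regions was highest on chromosomes 19 (58.2%), 16 (50%) and 20 (49.1%) and lowest on chromosomes 6 (27.3%), 3 (28.0%) and 18 (30.3%). Chromosomes 16, 17 and 19 are gene-dense. On chromosome 19 there were 1.53 5hmC regions for each 5mC region, against 3.63 on the X chromosome. The share of paired 5mC regions was higher in normal than in high glucose on 23 of 23 chromosomes, and that of 5hmC regions on 18 of 23. The lists also differed in length: high glucose had 191314 5hmC and 100220 5mC regions, normal glucose 209999 and 91870. The 5mC share moved with the length of the 5hmC list, and chromosomes of the same libraries are not replicates. With each 5hmC list cut to as many peaks as its 5mC list, 21.9% of 5mC regions were paired in normal and 18.8% in high glucose. The cut 5hmC lists held 91870 and 100220 regions, in that order. With 1 library a side the difference between glucose levels was not tested.

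**Figure D5:**
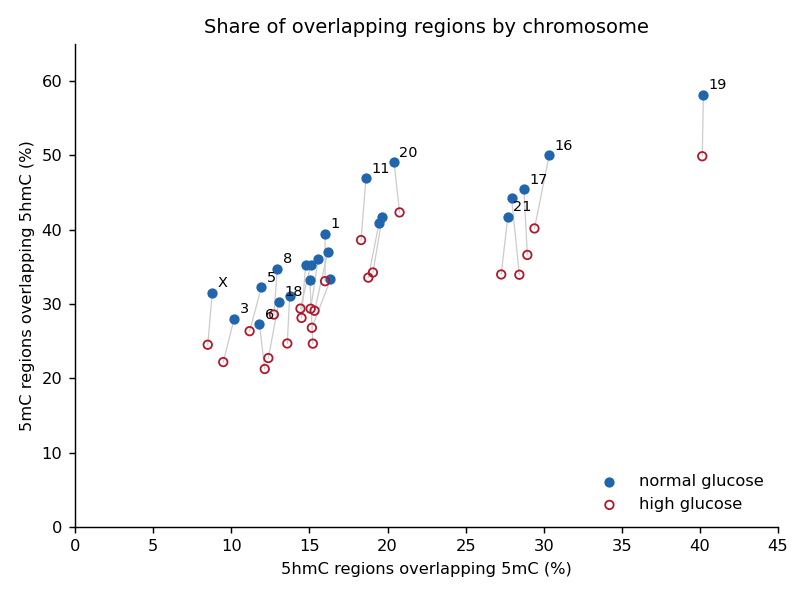
Percent of 5hmC regions that overlap 5mC (horizontal) and of 5mC regions that overlap 5hmC (vertical) on each of 23 chromosomes in normal glucose (filled) and high glucose (open), joined by a line for each chromosome, with names beside some of the points. Chromosome 19 stands apart at 40.2% and 58.2% in normal glucose.

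Meeting of the marks followed how densely the other mark lay in the same 1 Mb window. Of 5 equal groups of 5hmC regions by this density, 2.90% were paired in the sparsest (a median of 6 5mC regions per window) and 43.2% in the densest (143 per window). For 5mC regions the shares went from 18.4% where a window held a median of 49 5hmC regions to 60.7% where it held 238. A denser window has more regions of the other mark to meet, and how much of the rise that accounts for was not tested. Strong 5mC regions were more often paired than weak ones at each of the 5 densities. Width was not held fixed here, and no such rise was seen above in the narrowest groups of 5mC regions. In the sparsest windows 14.9% of the weakest and 37.9% of the strongest group of 5mC regions were paired, and in the densest 44.6% and 80.3%. For 5hmC the same shares were 3.33% and 4.61% in the sparsest and 39.3% and 50.9% in the densest windows. Width was not held fixed for these either. Over all densities, 14.2% of the weakest and 6.07% of the strongest 5hmC regions of 305 to 387 bp were paired. In the widest group these were 33.8% and 40.9%.

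The 3 windows that led each state were different ones. The most pairs, 261, lay on chromosome 17 from 79000001 to 80000000, followed by 252 in the window that begins at 80000001 and 220 on chromosome 9 from 139000001. The most 5hmC regions alone, 207, lay on chromosome 1 from 201000001, with 30 5mC regions alone and 41 pairs. Chromosome 1 from 156000001 (203) and chromosome 4 from 7000001 (191) followed. The most 5mC regions alone were 130 on chromosome 17 from 1000001, 127 on chromosome 16 from 4000001 and 125 on chromosome 17 from 73000001. The median of 2874 windows with a region of either mark held 53 5hmC regions alone, 13 5mC regions alone and 3 pairs.

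The lists of high glucose were then read at the same places. Of the paired 5mC regions of normal glucose, 86.1% overlapped a high-glucose 5mC region and 74.0% (73.5 to 74.4) a high-glucose 5hmC region, and 65.1% met both. Of the 5mC regions alone, 73.5% overlapped 5mC but 6.66% (6.46 to 6.87) 5hmC in high glucose. Paired 5hmC regions overlapped high-glucose 5hmC at 74.1% and 5mC at 85.3%, and 5hmC regions alone at 67.6% and 3.79%. Among regions whose -log10 p was 10 or more, 97.5% of paired and 94.1% of unpaired 5mC regions were listed for 5mC in high glucose, and 77.1% and 8.56% met 5hmC there. Among unpaired 5hmC regions of that strength, 90.3% were listed for 5hmC and 4.06% met 5mC. Paired regions were wider, and how far width accounts for these shares was not tested.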

How the data were processed

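For each library the authors deposited narrow peaks. Every deposited peak has a fold over local background (a ratio) and a summit position. Its deposited p-value and q-value are on a -log10 scale. Per the submitters' processing notes, the tools were bedtools 2.17.0, SAMtools 0.1.18, Bowtie 1.0.0 and CASAVA 1.8.2, with no roles stated, and the build was hg19. The sources used here do not name the peak caller or its control. The highest deposited q-value was 0.0496 for 5hmC and 0.0488 for 5mC in normal glucose. The smallest gap between regions of a list was 301 bp.

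Regions on chromosomes 1 to 22 and X were kept, and the 82 and 15 others of the normal-glucose lists left out. Overlaps, distances and ranks were computed with Python 3.11.15, NumPy 2.4.6 and pandas 2.3.3, and Wilson and order-statistic 95% intervals with SciPy 1.17.1. Functions were tested on simulated data. Fragments at a summit were the whole number t, and background the expected count L, for which fold was (t + 1)/(L + 1) and p the Poisson probability of more than t, within 1% of the step to the next whole number. They were found for all but 1 region of each normal-glucose list. The smallest L was 2.64 for 5hmC and 0.615 for 5mC. The estimated read ratio divides each by the shortest width, read as the fragment length. Named regions are the top ranks by strength, overlap or distance under a written rule. Members, rules and lists were chosen with earlier results of these data known. Alternatives were stricter p and q limits, equal list lengths, 50% overlap, 300 bp at summits and autosomes only.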

Additional observations from a re-analysis of the deposited data

Results flagged for a closer look

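In the widest of 5 groups of 5hmC regions, the share paired was 7.16 percentage points higher in the strongest than in the weakest group by -log10 p in normal glucose (33.8% and 40.9%), and in high glucose it was lower (36.7% and 34.3%). The narrowest 5mC group went the other way, with 23.2% in the weakest and 20.9% in the strongest group that held at least 100 regions, a difference of -2.28 points in normal glucose against 15.0% and 18.8% in high glucose. In the next wider 5mC group the difference was -1.26 points (29.7% and 28.5%), against 22.98% and 26.7%. These differences between glucose levels were not tested, since each level has 1 library per mark, and the strongest cell of that 5mC group held 123 regions. The normal-glucose 5mC list also held 6 regions on mitochondrial DNA, with folds of 1.70 to 2.93, which were left out of the comparison. The 5hmC list of normal glucose held 2 there.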

How the results depend on the processing

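All shares of paired regions above the median of those alone stayed above 50% over the whole list under each of 6 alternatives. Results are given in the order 5mC paired, 5hmC paired, summit distance, 5hmC fold, 5hmC width, 5mC fold, 5mC width (percent of paired regions above the median of those alone), and distance of 5mC and of 5hmC regions alone. At a -log10 p of at least 10 they were 27.3%, 14.9%, 286 bp, 60.1%, 82.7%, 67.2%, 72.4%, 6016 bp and 23463 bp. With as many 5hmC as 5mC peaks they were 21.9%, 20.9%, 255 bp, 59.7%, 82.2%, 69.7%, 73.7%, 6441.5 bp and 12285 bp. With 50% of both regions overlapping they were 17.3%, 7.57%, 118 bp, 61.2%, 78.2%, 69.8%, 71.2%, 1392 bp and 8024 bp, where a region with a smaller overlap counts as alone at a distance of 0. With 300 bp at each summit, 5mC paired was 24.1%, 5hmC paired 10.5%, the summit distance 94 bp, 5mC fold 63.8% and the distances 2084 and 9024 bp, and width has no value. At a -log10 q of at least 2, 5mC paired was 38.7%, 5hmC width 76.1%, 5mC fold 67.96% and the distances 2941 and 11176 bp. On autosomes 5hmC paired was 18.3% and the distance of 5hmC regions alone 10559 bp. The other values stayed within the counting interval of the reported ones. No paired analysis was possible because each group has 1 library. Whether a lower depth of the 5mC library set which 5hmC regions were paired was not tested.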

Other observations

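Paired regions lay in denser surroundings of their own mark. The median distance from a paired 5hmC region to the next 5hmC region was 1105 bp (1091 to 1122), against 2673 bp (2650 to 2700) for 5hmC regions alone. For 5mC it was 1748 bp (1714 to 1780) and 4221.5 bp (4154 to 4300).

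The regions with the most partners were long. A 5hmC region of 19556 bp on chromosome 16 from 87861638 to 87881193 overlapped 9 5mC regions, and one of 12868 bp on chromosome 19 from 18531543 to 18544410 overlapped 8. Another, on chromosome 20 from 56247240 to 56258486, overlapped 6. Among 5mC regions, those on chromosome 9 from 139905377 to 139916224 and on chromosome 16 from 586114 to 602985 and from 2746616 to 2759342 each overlapped 7 5hmC regions.

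The 5hmC region farthest from any 5mC lay on chromosome 6 from 62057581 to 62057881, at 2188114 bp, and the next were both on the X chromosome, from 91524884 to 91525206 and from 91402857 to 91403118. The 5mC region farthest from any 5hmC lay on chromosome 9 from 65602469 to 65602793, at 852371 bp, followed by chromosome 22 from 16097550 to 16098288 and from 16288229 to 16288553. The folds of the 3 5hmC regions were 2.56 to 4.40, with 11 to 16 fragments at the summit, against a median fold of 4.28 for 5hmC regions alone. Those of the 3 5mC regions were 4.95 to 5.57, with 7 to 8 fragments, against a median of 6.13. Whether gaps of the build lie within the distances given was not tested.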
